A study of Mus musculus with 16 samples.

Results

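A set of 10 genes of cytosolic nucleic acid sensing, chosen by symbol because of their relevance to cells that take up plasmid DNA, were followed in mouse TM4 cells: *Cgas*, *Sting1*, *Zbp1*, *Ifih1*, *Dhx58*, *Mavs*, *Tbk1*, *Irf3*, *Irf7* and *Trex1*. All 10 have a row among the 56748 genes of the count table, and 9 of them had counts. TM4 is an established mouse cell line of Sertoli origin, Sertoli cells being the supporting cells of the testis. The cells received 2.5 µg of plasmid per well by lipofection and RNA was taken 24 h later. The plasmid was the empty vector pcDNA3.1-HA (EV, 6 samples), an expression plasmid for killifish *gdf6Y* (gdf6Y, 5 samples) or one for its mutant variant *gdf6Y* del9 (del9, 5 samples). Every sample was therefore transfected with plasmid DNA, and no untransfected sample was analysed here, so the values below compare plasmids and do not show what transfection itself did. Both expression plasmids carry an insert that EV lacks. The labels number the replicates but do not say that they were separate cultures. The spread behind the p-values comes from these samples, mostly pooled over genes as described below, and may be technical. In bulk RNA, fewer expressing cells and less RNA per cell cannot be told apart.

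Cells recognize misplaced nucleic acids with sensors that each read a different feature. cGAS binds double-stranded DNA and makes the second messenger cGAMP, which activates STING, while RIG-I and MDA5 (encoded by *Ifih1*) bind double-stranded RNA and signal through MAVS. Both routes converge on the kinase TBK1 and the transcription factors IRF3 and IRF7, which switch on type I interferon genes. Interferon in turn raises the transcripts of many sensors, such as *Zbp1*, *Dhx58*, *Ifih1* and *Irf7*, so that these genes are at the same time parts of the pathway and readouts of it.

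Libraries held between 21486850 and 26444903 counted reads. Of the 11 Sertoli cell markers listed, 2 (*Wt1* and *Dmrt1*) were at 0 in all samples. Only 2 others reached a mean count of 100, so their sum rests on few genes. The summed normalized count of the 11 ranged from 1682 to 1770 with EV, from 1497 to 1619 with gdf6Y and from 1570 to 1734 with del9. Of 8 tested, 1 (*Gata4*) fell with gdf6Y against EV. The sum was thus lower with gdf6Y than with EV without overlap, as the sensors below were in part, and its part in those differences was not tested. Of 13 macrophage and leukocyte markers, 3 (*Itgam*, *Tyrobp* and *Cd3e*) were at 0 in all samples. The summed count of the 13, most of it from *Cd14*, ranged from 493 to 773 with EV, from 549 to 721 with gdf6Y and from 551 to 758 with del9. The summed count of 6 fibroblast and mesenchymal markers was far higher. It ranged from 131745 to 141263 with EV, from 128888 to 142826 with gdf6Y and from 127099 to 135490 with del9. Of these 6, 1 rose and 1 fell with gdf6Y against EV, and 2 fell with del9. The marker sums cover different genes and are not divided by exon length, so their sizes do not show cell identity. A normalized count is the count scaled with edgeR's TMM method to the average effective depth of the 16 libraries.

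A gene is called changed below when its adjusted p was under 0.05 in edgeR's quasi-likelihood test over all genes with at least 1 count. That fit has a weakness that bears on every p-value. With so many near-empty genes in it, the prior degrees of freedom came to 738 for gdf6Y against EV and had no upper bound in the other comparisons, so that almost every gene was given the spread of the trend, whatever its own samples did. The standard errors of genes that vary much between replicates are then too small. The adjusted p from the same test restricted to expressed genes (edgeR's filterByExpr, prior degrees of freedom 9.57 to 10.9) is therefore given beside the calls of the members. For the other genes, each call of a named gene that was lost in the restricted fit is stated with its adjusted p there. The 95% confidence intervals come from that restricted fit.

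The order of the genes was set by their level per kilobase of exon. Over the 16 samples *Irf7* was the highest at 25.6 ± 1.80 CPM per kilobase (SD, n = 16), followed by *Sting1* at 17.3 ± 1.12. *Zbp1* (7.94 ± 1.24), *Tbk1* (7.88 ± 0.180), *Dhx58* (7.72 ± 0.687), *Cgas* (7.06 ± 0.499) and *Irf3* (6.13 ± 0.511) formed a middle group in which each gene's range overlapped that of the next. *Mavs* (5.15 ± 0.162) and *Ifih1* (2.21 ± 0.153) were lower, without overlap with their neighbours. These levels depend on the annotated exon length, which is 11372 bases for *Mavs* and 3189 bases for *Sting1*.

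Against EV, every member that was called was lower. *Zbp1*, *Dhx58* and *Irf7* were called with both expression plasmids, *Ifih1* and *Sting1* with del9 only. Of the 9 members tested, 3 fell with gdf6Y and 5 fell with del9, and none rose. Among all genes tested, 3.38% were called lower with gdf6Y (5.08% in either direction) and 4.43% were called lower with del9 (9.25% in either direction). In the restricted fit the members called were 3 and 4, with 5.71% and 8.29% of expressed genes called lower. The median log2 fold change of the 9 members was -0.08 with gdf6Y and -0.11 with del9, while that of all genes tested lay within 0.01 of 0 in both. The 2 comparisons share their EV samples, so their likeness is not an independent repeat. The members were chosen with earlier results of these data known.

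**Figure D1:**
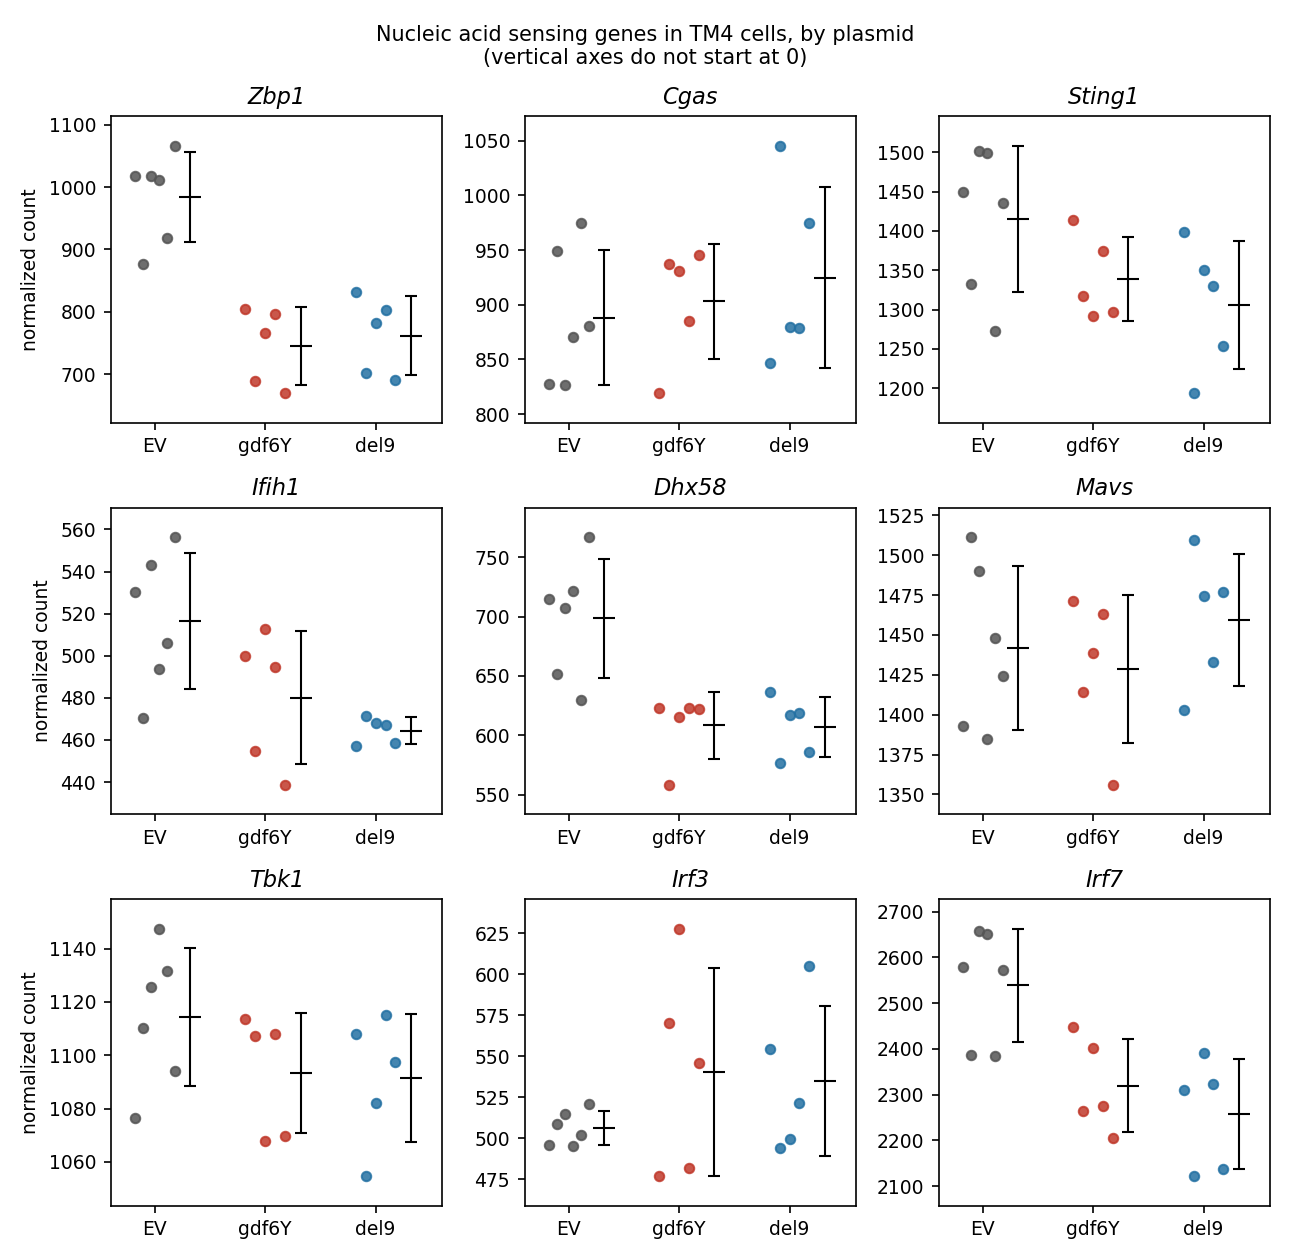
Normalized counts (vertical axes, not starting at 0) of the 9 members with counts, by plasmid. Points are samples in order of replicate number, and the black bar is the mean ± SD. All 5 gdf6Y and all 5 del9 samples of *Zbp1* lie below the lowest EV sample.

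*Zbp1* (ENSMUSG00000027514, GRCm39 chr2:173033815-173060724, minus strand) encodes a sensor of left-handed Z-form nucleic acids that can start necroptosis. Its normalized counts with EV ran from 876 to 1066 with a median of 1014. The gdf6Y samples gave 805, 689, 765, 796 and 669, and the del9 samples 832, 701, 782, 802 and 690. Every sample with an expression plasmid was below every EV sample, an arrangement that 1.35% of all genes showed as lower counts with gdf6Y and 1.6% with del9. Only 10074 of the 26316 genes tested with gdf6Y reached a mean count of 100. The share among genes counted as often as *Zbp1* was not computed. Means ± SD were 984 ± 71.6 (EV, n = 6), 745 ± 62.3 (gdf6Y, n = 5) and 762 ± 62.9 (del9, n = 5). The log2 fold change was -0.40 with gdf6Y (SE 0.041, adjusted p = 2.32e-18; restricted fit SE 0.054, adjusted p = 0.000337, 95% confidence interval -0.51 to -0.28). With del9 it was -0.37 (SE 0.039, adjusted p = 1.49e-17; restricted fit SE 0.054, adjusted p = 0.000389, interval -0.49 to -0.26). *Zbp1* thus had the largest difference of the 9 members in both comparisons with EV, in either fit.

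Among the genes of the RNA receptors, *Dhx58* (ENSMUSG00000017830, chr11:100585710-100595097, minus strand) encodes LGP2, a helicase without signaling domains that tunes RIG-I and MDA5. With EV its normalized counts ran from 630 to 767 with a median of 711. They were 623, 559, 616, 623 and 622 with gdf6Y and 637, 577, 617, 619 and 586 with del9. No gdf6Y sample reached the lowest EV sample, while 1 del9 sample did. The log2 fold change was -0.20 with gdf6Y (SE 0.044, adjusted p = 0.000634; restricted fit 0.0174). It was also -0.20 with del9 (SE 0.044, adjusted p = 0.000200; restricted fit 0.00644).

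*Ifih1* (ENSMUSG00000026896, chr2:62425714-62476607, minus strand) encodes MDA5, the receptor of long double-stranded RNA. Its normalized counts with EV ran from 470 to 556 with a median of 518. They were 500, 455, 513, 495 and 439 with gdf6Y, within or below the EV range, and 457, 471, 468, 467 and 459 with del9, of which 1 was above the lowest EV sample. *Ifih1* fell with del9 by 0.15 on the log2 scale (SE 0.049, adjusted p = 0.0271; restricted fit 0.0229). That call was lost without EV replicate 1 (adjusted p = 0.0581), EV replicate 3 (0.0973), EV replicate 6 (0.0993), del9 replicate 3 (0.0515) or del9 replicate 5 (0.0617). With gdf6Y the log2 fold change was -0.10 and did not pass (adjusted p = 0.301; restricted interval -0.21 to 0.01). The third receptor, *Rigi*, which is not a member, fell from 4186 ± 198 normalized counts (mean ± SD; EV, n = 6) to 3730 ± 171 (gdf6Y, n = 5) and 3700 ± 93.8 (del9, n = 5), without overlap with EV (restricted fit adjusted p = 0.00626 and 0.00108).

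Of the DNA arm, *Cgas* (ENSMUSG00000032344, chr9:78337802-78350535, minus strand) did not pass in any comparison. Means ± SD were 888 ± 61.8 (EV, n = 6), 903 ± 52.6 (gdf6Y, n = 5) and 925 ± 82.6 (del9, n = 5). The restricted intervals of the log2 fold change against EV were -0.07 to 0.13 with gdf6Y and -0.06 to 0.17 with del9. *Sting1* (ENSMUSG00000024349, chr18:35866732-35873607, minus strand), the adaptor that cGAMP activates, had 1415 ± 92.8 (SD, n = 6) normalized counts with EV. The gdf6Y samples gave 1414, 1317, 1291, 1375 and 1297, and the del9 samples 1399, 1194, 1351, 1330 and 1254, and both groups overlapped the EV range of 1273 to 1502. The log2 fold change with del9 was -0.11 (SE 0.034, adjusted p = 0.0133). This call is not firm: the adjusted p was 0.0732 in the restricted fit and 0.0709 with DESeq2. It was also lost without EV replicate 3 (0.0907), EV replicate 4 (0.0884), del9 replicate 2 (0.140) or del9 replicate 5 (0.0687). With gdf6Y the log2 fold change was -0.08 (adjusted p = 0.234).

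*Trex1* (ENSMUSG00000049734, chr9:108887001-108888802, minus strand) encodes the exonuclease that removes cytosolic DNA before cGAS can bind it. It had 0 counts in all 16 samples. All of its 1147 exonic bases (100%) lie in exons of *Atrip* on the same strand, and reads that overlap more than 1 gene were discarded in the counting, so this 0 is no measure of the transcript's level and sets no upper limit on it. *Atrip* itself, which keeps only reads outside the shared bases, had normalized counts (mean ± SD) of 387 ± 25.6 (EV, n = 6), 384 ± 26.01 (gdf6Y, n = 5) and 384 ± 4.73 (del9, n = 5).

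The adaptor *Mavs* and the kinase gene *Tbk1* did not pass in any comparison. *Mavs* (ENSMUSG00000037523, chr2:131075442-131096740, plus strand), the mitochondrial adaptor of the RNA receptors, had 1442 ± 51.3 (SD, n = 6), 1429 ± 46.3 (SD, n = 5) and 1459 ± 41.6 (SD, n = 5) normalized counts with EV, gdf6Y and del9. *Tbk1* (ENSMUSG00000020115, chr10:121382360-121422848, minus strand), the kinase of IRF3, had 1114 ± 26.03, 1093 ± 22.5 and 1091 ± 24.0 in the same order. For both genes the restricted intervals against EV stayed between -0.10 and 0.08 on the log2 scale.

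The 2 transcription factors differed from each other. *Irf3* (ENSMUSG00000003184, chr7:44647033-44652272, plus strand), which is kept inactive in the cytoplasm until it is phosphorylated, was not called. Its normalized counts with EV lay between 495 and 521. They were more scattered with gdf6Y (477, 571, 628, 482 and 546) and del9 (555, 494, 499, 521 and 605), and the restricted interval for the difference from EV was -0.03 to 0.22 on the log2 scale with gdf6Y and -0.03 to 0.18 with del9. *Irf7* (ENSMUSG00000025498, chr7:140842619-140846398, minus strand), the interferon-inducible partner, had 2538 ± 124 (SD, n = 6) normalized counts with EV, between 2383 and 2658. The gdf6Y samples gave 2448, 2265, 2402, 2275 and 2206, and the del9 samples 2310, 2122, 2391, 2323 and 2138. Both groups overlapped EV at its 2 lowest samples. *Irf7* fell by 0.13 on the log2 scale with gdf6Y (SE 0.031, adjusted p = 0.00186; restricted fit 0.0277) and by 0.17 with del9 (SE 0.030, adjusted p = 2.71e-06; restricted fit 0.00398).

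**Figure D2:**
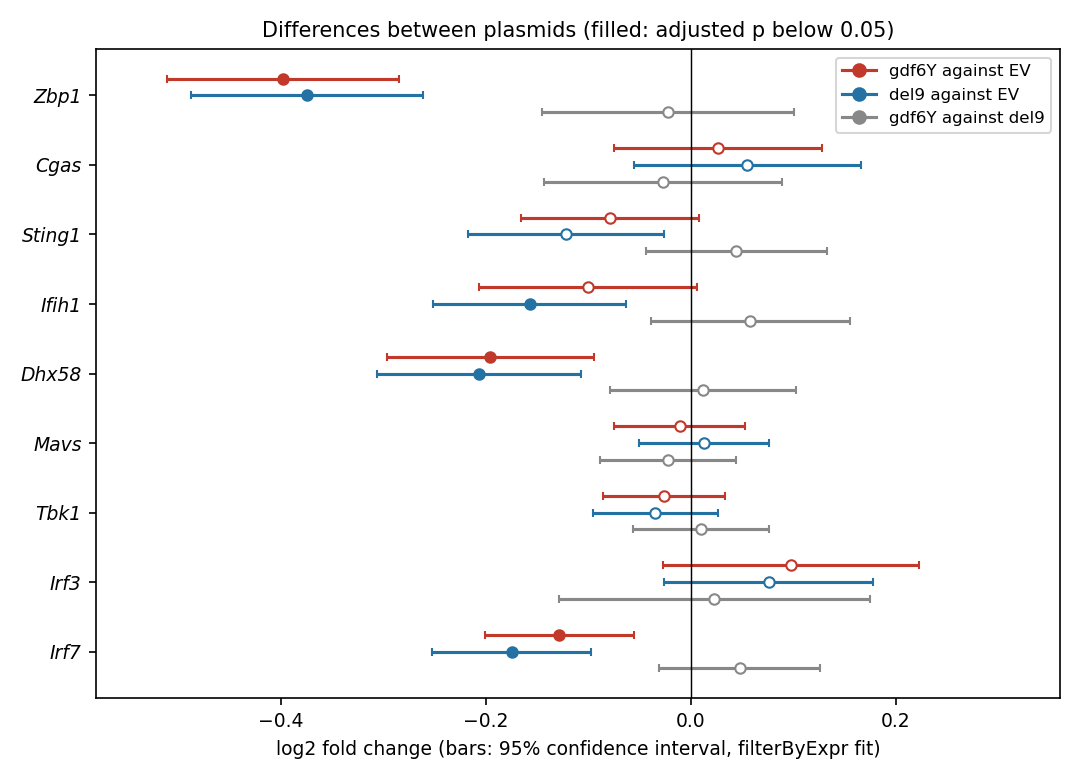
Log2 fold changes (horizontal axis) of the 9 members in the 3 comparisons, with 95% confidence intervals from the fit restricted to expressed genes; filled points have an adjusted p below 0.05 in that fit. *Zbp1*, *Dhx58* and *Irf7* are filled in both comparisons with EV, *Ifih1* with del9 only, and no point is filled for gdf6Y against del9.

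Between the expression plasmids, none of the 9 members was called. The background was 1.01% of all genes tested and 0.356% in the restricted fit. No member had an unadjusted p under 0.05 in edgeR's quasi-likelihood test, and DESeq2 called 0 as well. The log2 fold changes ran from -0.03 for *Cgas* to 0.06 for *Ifih1*. The interval for *Zbp1* was -0.15 to 0.10, and over all members the intervals reached from -0.15 to 0.18. A p that misses the threshold does not show that the plasmids act alike, and each interval gives the differences that these samples leave possible for its gene.

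Zbp1 was also used to ask which transcripts varied like it across samples. Among the 12577 genes whose mean count reached 10, the 5 with the highest Pearson correlation of log2 CPM over the 16 samples were *Rsad2* (0.97), *Oasl2* (0.97), *H2-T24* (0.96), *Xdh* (0.95) and *Ifit1* (0.95). *Rsad2* (viperin), *Oasl2* and *Ifit1* are classical interferon-stimulated genes. Within groups, that is with the group means taken out, these values were between 0.87 and 0.89. Of the members, *Dhx58* (0.92) and *Irf7* (0.90) came nearest to *Zbp1*, while *Cgas* had -0.56 and *Mavs* -0.08. With the group means taken out, *Irf7* had 0.83, *Sting1* 0.80, *Dhx58* 0.78 and *Cgas* -0.83. Samples of a group share their plasmid, and all went through the same library preparation, so these correlations are a description. Taking out the group means also leaves differences between replicates in place. Replicates 2 and 5 were the 2 lowest samples in all 3 groups for *Zbp1*, *Irf7*, *Rsad2*, *H2-T24*, *Xdh* and *Ifit1*, though not for *Oasl2*. For *Cgas* these replicates were the 2 highest in all 3 groups. How much of the within-group correlations rests on these replicates was not tested.

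**Figure D3:**
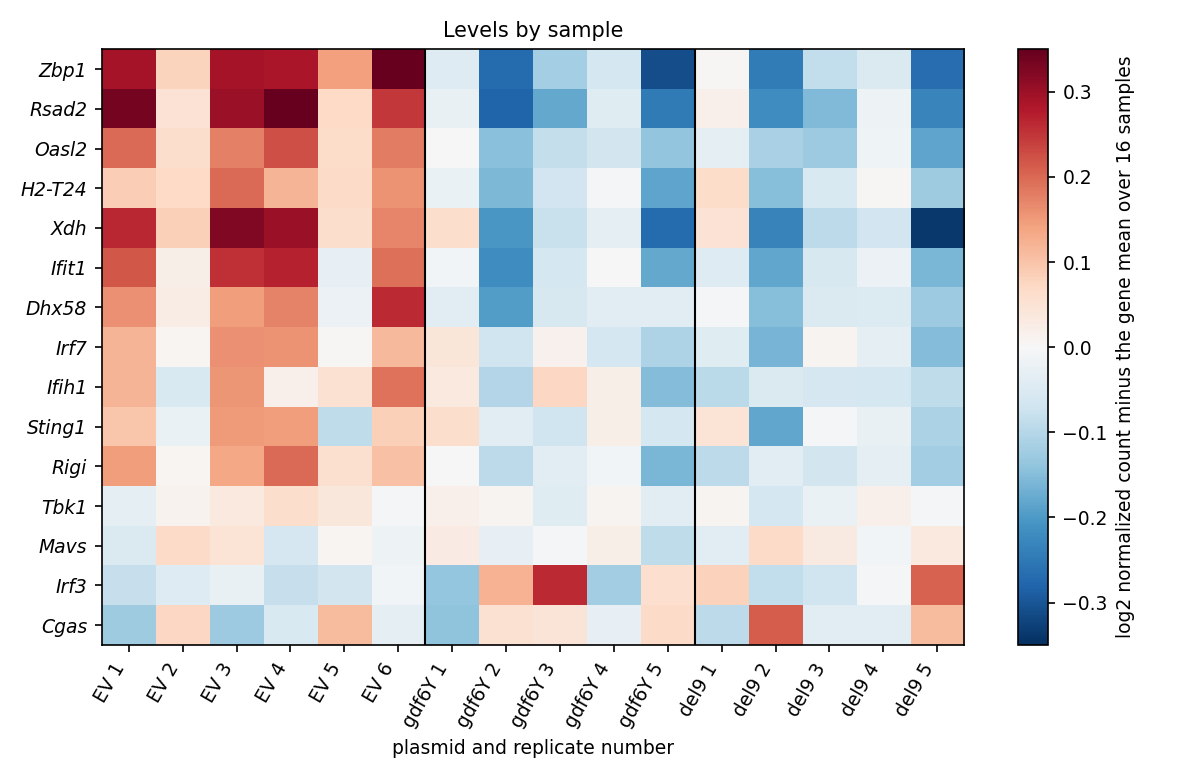
Log2 normalized count minus the mean of the gene over 16 samples (colour), for 15 genes (rows) in each sample (columns, vertical lines between plasmids). *Zbp1* and the 5 genes nearest to it are above their mean in nearly all EV samples and mostly below it with the expression plasmids, whereas *Tbk1* and *Mavs* stay near their mean.

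The rest of the pathway was read from lists fixed by symbol. They were chosen with earlier results of these data known, so the shares called in them are a description. Among all genes with a mean count of 100 or more, 12.9% were called with gdf6Y (8.58% lower) and 21.7% with del9 (9.40% lower), and the counts below are to be read against these shares. Of 19 genes stimulated by interferon, 14 fell and 1 rose with gdf6Y, and 15 fell and 1 rose with del9, with a median log2 fold change of -0.26 and -0.25. In the restricted fit 12 of 18 fell with gdf6Y and 12 of 18 with del9. *Rsad2* went from 2290 ± 217 normalized counts (mean ± SD; EV, n = 6) to 1750 ± 141 (gdf6Y, n = 5) and 1793 ± 143 (del9, n = 5), and *Ifit3*, whose product binds viral RNA together with IFIT1, from 1184 ± 113 (SD, n = 6) to 880 ± 68.4 (SD, n = 5) and 881 ± 95.3 (SD, n = 5). The gene that rose was *Ifi27* (log2 fold change 0.14 and 0.10; restricted fit adjusted p = 0.0429 and 0.147). The chemokine *Ccl2* shows the weakness of the unrestricted fit: its log2 fold change was -0.36 with gdf6Y and -0.25 with del9 with standard errors of 0.035 and 0.029, but its EV samples had an SD of 640 around 3444, and the restricted adjusted p was 0.0471 and 0.112. Over 10 ways of estimating the spread it was called in 4 with gdf6Y and 2 with del9.

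Of 23 other RNA sensors tested, 7 fell with gdf6Y and 8 with del9, and none rose (6 and 6 of 21 in the restricted fit). They include the oligoadenylate synthetases *Oas2* and *Oas3*, which make the activator of RNase L. Normalized counts of *Oas3* (mean ± SD) were 2092 ± 96.7 (EV, n = 6), 1631 ± 101 (gdf6Y, n = 5) and 1707 ± 52.4 (del9, n = 5). Of 21 other DNA sensors tested, 3 fell and 1 rose with gdf6Y, and 4 fell and 2 rose with del9. In the restricted fit 1 fell and 2 rose of 16 with gdf6Y, and 6 fell and 2 rose with del9. With del9 in the restricted fit, 6 of 16 lower stood well above the 8.29% of all expressed genes called lower. The other shares were nearer to those of all genes at such counts. These counts are small and changed with the fit, so they are not read as a result about DNA sensors. Those that fell in both comparisons were *Ifi207*, *Prkdc* (the DNA-dependent protein kinase) and *Rad50*, of which *Prkdc* (0.0793) and *Rad50* (0.0576) did not pass with gdf6Y in the restricted fit. *Ifi203* was called lower with del9 (the difference between the plasmids was not: adjusted p = 0.114), *Hmgb1* rose with both plasmids and *Xrcc6* with del9. *Ifi207* and its relatives form a family of similar genes, so reads that map to several of them were lost in the counting and their values are uncertain.

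In the remaining lists the shares called in either direction were near or below those of all genes at a mean count of 100 or more. These list shares also include genes with lower mean counts, and shares in 1 direction were not compared. Of the interferon and interferon signaling genes 2 of 16 fell with gdf6Y, *Stat2* and *Socs3*, and both of these fell with del9 as well (restricted fit adjusted p = 0.00249 for *Stat2* and 0.0733 for *Socs3*). *Ifnb1*, the gene of interferon beta, had between 0 and 5 reads per sample, too few to compare. Of the adaptors, kinases and transcription factors, 1 of 29 rose with gdf6Y (*Casp8*), and 2 rose (*Casp8* and *Rela*) and 1 fell (*Tank*) of 28 with del9. Among the regulators of sensing 3 of 40 fell with gdf6Y (*Trim25*, *Trim56* and *Uba7*). With del9 5 fell (these, *Herc6* and *Itch*) and 4 rose (*Tnfaip3*, *Pcbp1*, *Slc19a1* and *G3bp1*), of which *Uba7* (adjusted p = 0.0570), *Tnfaip3* (0.152) and *Slc19a1* (0.0534) did not pass in the restricted fit. Of the genes of nucleic acid clearance and editing, *Adar* fell with gdf6Y (1 of 16), and *Rnaseh2b*, *Banf1* and *Atad3a* rose with del9 (3 of 17). Between gdf6Y and del9, 2 genes of all these lists were called, *Ifi205* (log2 fold change 0.40, restricted fit adjusted p = 0.0498) and *Parp14* (-0.18, restricted fit 0.230). These 2 genes, *Ifi27*, *Hmgb1*, *Xrcc6*, *Trim25*, *Uba7*, *Itch*, *Tnfaip3* and *Slc19a1* are named to account for small counts and were chosen after their values were seen.

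RefSeq promoter windows (GRCm38.p6, 250 bases before to 50 after the start) were searched on both strands for a pair of GAAA with any 2 bases between, the core of the interferon-stimulated response element. It was present in 3.44% of 32851 windows. A window was given for 7 of the 10 members and not for *Zbp1*, *Dhx58* and *Sting1*. The only match was in *Ifih1*. It begins at base 33 counted from the transcription start and so lies after the start, within the transcribed part. It is shown in capitals with its flanking bases (chr2:62646206-62646233, minus strand) because *Ifih1* is an interferon-inducible member.
Ifih1: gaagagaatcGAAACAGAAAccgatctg
The motif was not found in the windows of *Irf7*, *Irf3*, *Cgas*, *Mavs*, *Tbk1* or *Trex1*. The 250 bases before the start of *Irf7* (chr7:141266425-141266674, minus strand) and *Irf3* (chr7:44997398-44997647, plus strand) are given because the former fell against EV and the latter was not called.
Irf7: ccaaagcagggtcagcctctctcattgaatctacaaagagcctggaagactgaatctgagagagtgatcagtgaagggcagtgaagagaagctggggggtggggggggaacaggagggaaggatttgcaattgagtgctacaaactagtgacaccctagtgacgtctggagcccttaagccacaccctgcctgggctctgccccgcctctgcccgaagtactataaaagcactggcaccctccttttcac
Irf3: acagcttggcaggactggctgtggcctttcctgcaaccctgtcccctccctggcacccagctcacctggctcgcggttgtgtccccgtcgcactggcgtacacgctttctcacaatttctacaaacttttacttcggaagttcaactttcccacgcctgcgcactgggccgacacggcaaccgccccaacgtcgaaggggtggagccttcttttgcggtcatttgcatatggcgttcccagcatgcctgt
These matches describe letters in a window and do not show binding.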

How the data were processed

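The authors deposited raw counts per gene: reads were stripped of unique molecular identifiers, aligned with STAR 2.7.10a to GRCm39, freed of PCR duplicates with UMI-tools and counted by strand with featureCounts 2.0.3, without multi-mapping or multi-overlapping reads. They left out gdf6Y and del9 replicate 6 for quality. Gene symbols and coordinates were read from GENCODE for GRCm39, a release other than that used for counting (56017 of 56748 identifiers matched).

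Counts were compared with edgeR 4.0.16 (R 4.3.3; TMM, quasi-likelihood test, 2 groups per model, no covariates) over genes counted at least 1 time among the samples compared. Adjustment was by Benjamini-Hochberg over all these genes, with a threshold of 0.05. Replicates differed by more than sampling noise (chi-square per degree of freedom 1.41 to 11.5 over 35 pairs). The steps were tested on simulated counts, where more than the nominal share of the calls of this fit was false, and fewer with filterByExpr.

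Each result was also computed with a block for the replicate number, a joint model of the 3 groups, filterByExpr, scaling by total counts or by the size factors of DESeq2, the test of DESeq2 1.42.0, and leaving out single replicates. After the results of this fit were seen, and because *Ccl2* had a standard error far below the spread of its samples, 10 estimates of the spread were compared for each comparison. They were this fit, filterByExpr, DESeq2, edgeR 4's dispersion estimate (added earlier, also after the data were seen) and 6 new fits: edgeR 4's estimate with filterByExpr, 4 robust fits (either estimate, with and without filterByExpr) and limma-voom with filterByExpr (limma 3.58.1). The fit over all genes with a count was kept as first set rather than replaced by one whose outcome was known. Calls over the 10 estimates are summarized below for members and named genes.

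The members and lists were chosen with earlier results of these data known. The genes named were all members, *Ifnb1*, *Rigi*, up to 4 genes per list with the smallest adjusted p, and the 5 genes nearest to *Zbp1* (log2 CPM, pseudocount 2 counts). A gene of the interferon signaling list is not reported here.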

Additional observations from a re-analysis of the deposited data

Results flagged for a closer look

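In 6 of 117 groups of values of the named genes, 1 sample stood further from the others than the 95% limit of Dixon's test, where chance picks about 1 in 20 groups (5.85 here). The gap as a share of the range was 0.886 for *Dhx58* in gdf6Y replicate 2 (559 normalized counts against 616 to 623 in the others), the only member among them. It was 0.746 for *Prkdc* in gdf6Y replicate 1, 0.776 for *Oas2* in gdf6Y replicate 1, 0.757 for *Pcbp1* in EV replicate 1, 0.727 for *Pcbp1* in del9 replicate 1 and 0.734 for *Ifi44* in gdf6Y replicate 2. *Dhx58* was called against EV also without that sample.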

How the results depend on the processing

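*Zbp1*, *Dhx58* and *Irf7* were called lower against EV in all 25 fits run of each comparison, the reported one included, and no member was called in any of the 24 fits of gdf6Y against del9. The highest adjusted p against EV with gdf6Y was 0.00326 for *Zbp1*, 0.0201 for *Dhx58* and 0.0286 for *Irf7*. With del9, *Ifih1* was called in 19 of 25 fits and *Sting1* in 15 of 25. Over the 10 estimates of the spread, *Sting1* passed in 4 (adjusted p 0.0111 to 0.0853) and *Ifih1* in 10 (0.0209 to 0.0337), while all genes called numbered 950 to 1338 (gdf6Y against EV), 45 to 261 (gdf6Y against del9) and 2051 to 2425 (del9 against EV). For gdf6Y against del9, where 261 genes were called, DESeq2 called 82, filterByExpr 45 (also with edgeR 4's estimate or limma-voom, 45 each, and 47 with robust estimation under either estimate), edgeR 4's estimate 163 and that with robust estimation 111. The cause was not tested, except that filterByExpr tests fewer genes and borrows less of the spread. Some other named genes called against EV were not called under all 10 estimates. With gdf6Y these included *Prkdc* (called in 3), *Ccl2* (4), *Stat2* (6), *Rad50*, *Socs3* and *Trim56* (7 each). *Ifit1* and *Xdh* were called in 8 and *Oas2* and *Ifi207* in 9. With del9 they included *Ccl2* (2), *Socs3* (4), *Stat2* (8) and *Tank* (9).

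Whether replicate numbers pair the samples is not given in the labels, and the data did not meet the criterion set for it: the correlation of same-numbered deviations averaged 0.121, 0.135 and 0.0620 (gdf6Y against EV, gdf6Y against del9, del9 against EV) and was not over 0.1 in every pair, and a sample correlated best with its own number in 3, 3 and 1 of 5 pairs. Missing this criterion does not show that samples with the same number share nothing, and the reported fits leave the number out. With the replicate number as a block, 2061, 661 and 2996 genes were called, against 1338, 261 and 2425 without it. *Ifih1* with del9 then had an adjusted p of 0.0594. With total counts, del9 against EV had 863 genes higher and 1492 lower, against 1263 and 1162 with TMM and 1112 and 1258 with DESeq2's size factors, and *Oas2* in gdf6Y against del9 changed sign to 0.0032.

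Leaving out 1 replicate gave 794 (without gdf6Y replicate 5) to 1751 genes for gdf6Y against EV and 160 (without del9 replicate 2) to 441 (without del9 replicate 1) for gdf6Y against del9. For del9 against EV, 3 (without EV replicate 3 or del9 replicate 5) to 5 members were called. Log2 fold changes near 0 changed sign, over -0.0207 to 0.00679 for *Mavs* with gdf6Y against EV. For gdf6Y against del9 they ran over -0.0616 to 0.0153 for *Cgas*, -0.0115 to 0.0371 for *Dhx58*, -0.0421 to 0.0681 for *Irf3*, -0.00806 to 0.0158 for *Tbk1*, -0.0586 to 0.00821 for *Zbp1*, -0.00803 to 0.0222 for *Banf1*, -0.0366 to 0.0530 for *Herc6*, -0.0187 to 0.0356 for *Ifit1*, -0.0363 to 0.0705 for *Ifit3*, -0.0630 to 0.0422 for *Oas2*, -0.0102 to 0.0278 for *Oasl2*, -0.0671 to 0.0490 for *Prkdc*, -0.0120 to 0.0441 for *Rad50*, -0.0623 to 0.00569 for *Rsad2*, -0.0729 to 0.0311 for *Trim56* and -0.0112 to 0.0851 for *Xdh*.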

Other observations

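Samples with the numbers 2 and 5 lay together at the ends of several members' ranges, a pattern noticed after the values were seen. For *Zbp1* and *Irf7*, replicates 2 and 5 were the 2 lowest samples in all 3 groups, as they were for 394 of 10074 genes whose mean count reached 100 (3.91%). For *Cgas* they were the 2 highest in all 3 groups, as for 168 of these genes (1.67%). The share of genes that unrelated numbers would give was not computed, so 3.91% and 1.67% do not show that the pattern is common. The labels do not say what samples with the same number share.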
